A study of Homo sapiens with 12 samples.

Results

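The 43 genes described here encode the machinery that copies DNA in S phase, and their RNA was counted by sequencing in MKN28 and MKN45 cells, which are established human gastric cancer lines. They were chosen by symbol from the Ensembl identifiers of a gene count table, and all 43 were found among its 50868 identifiers. In MKN28, cells carrying a lentivirus with an siRNA sequence against ZNF165 (knockdown, 3 libraries) were set against cells carrying a control lentivirus (MKN28 control, 3 libraries). In MKN45, cells carrying a ZNF165 lentivirus (overexpression, 3 libraries) were set against cells carrying a control lentivirus (MKN45 control, 3 libraries). The genotype label of the control libraries of both lines is WT. ZNF165, a SCAN-domain zinc-finger gene expressed mostly in testis among normal tissues, is named in the series title as a possible target of immunotherapy. Whether the cells of a group were a pool or a single clone, and whether its 3 libraries came from separate cultures, is not stated. Every p-value below therefore measures the spread between libraries, which may be technical.

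Replication begins when the origin recognition complex, with CDC6 and CDT1, loads the ring-shaped MCM2-7 helicase on DNA. CDC45 and the GINS complex then activate that helicase, polymerase alpha with primase lays down primers, and polymerases delta and epsilon extend them on the sliding clamp PCNA, which replication factor C loads. In proliferating cells many of these genes are transcribed together before S phase under the E2F family of factors, which the retinoblastoma protein holds in check, and tumour cells that divide quickly usually carry high levels of their RNA.

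Sequences around the start of the genes were searched for an E2F motif, and the stretches with a match are given for 6 members. RefSeq's promoter windows (GRCh38.p14, 250 bases before to 50 after the start) were at hand for 37 of the 43 genes. The E2F motif, spelled TTTCGCGC or TTTGGCGC and searched on both strands, was present in 10 of the 37 windows (27.0%) and in 322 of 27305 windows of all genes (1.18%). In the lines that follow, capitals mark the motif, and each stretch runs 5′ to 3′ on its gene's strand with up to 30 bases on either side.
GINS1 (chr20:25407648-25407685, plus strand): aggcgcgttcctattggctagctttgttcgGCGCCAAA
MCM2 (chr3:127598383-127598424, plus strand): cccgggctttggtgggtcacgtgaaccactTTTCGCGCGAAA
MCM7 (chr7:100101398-100101436, minus strand): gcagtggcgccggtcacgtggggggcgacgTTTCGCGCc
POLE (chr12:132687343-132687390, minus strand): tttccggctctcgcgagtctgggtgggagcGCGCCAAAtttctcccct
POLA1 (chrX:24693751-24693818, plus strand): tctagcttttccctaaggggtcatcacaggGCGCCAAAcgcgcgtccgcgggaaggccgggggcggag
POLA2 (chr11:65261879-65261946, plus strand): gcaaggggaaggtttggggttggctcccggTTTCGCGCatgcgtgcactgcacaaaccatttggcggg
In MCM2, MCM7 and POLA2 the motif read TTTCGCGC on the gene's own strand, and in MCM2 it overlapped a second match on the opposite strand. In GINS1, POLE and POLA1 the motif TTTGGCGC lay on the opposite strand, so that GCGCCAAA is printed. MCM6 held 4 matches, and CDC6, MCM3 and POLE2 were the other members with one. The CCAAT box (CCAAT) was in 56.8% of the members' windows against 35.7% of all windows. The GC box (GGGCGG) was in 73.0% against 44.6%, and the CHR element (TTTGAA), which is known from genes of mitosis, in 2.7% against 15.4%, with both strands searched each time. A match is a string of letters and not a measured binding site.

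Libraries held 12075813 to 19548445 counts. ZNF165 itself had 4.75, 3.95 and 2.51 CPM in knockdown libraries 1 to 3, against 10.8, 7.88 and 12.4 CPM in the MKN28 controls, and 107, 96.6 and 107 CPM in overexpression libraries, against 8.71, 10.3 and 17.6 CPM in the MKN45 controls, without overlap in either line. CPM relates the count to the library total after scaling by TMM factors within each comparison. By an exact permutation test (two-sided) p was 0.1 in each line, the smallest value that 3 against 3 libraries allow. The descriptions of knockdown libraries 2 and 3 name ZNF166 and ZNF167. Their genotype label is ZNF165 knockdown, and the libraries were grouped by it. Knockdown library 1 stood apart from libraries 2 and 3: the chi-square per degree of freedom was 417 and 253 for the pairs with library 1 and 60.1 between libraries 2 and 3. To a lesser degree the second control of each line stood apart, with 103 and 158 for its pairs in MKN28 controls against 44.4 for the other pair, and 123 and 88.2 in MKN45 controls against 32.2. Genes with a count numbered 20560, 17620 and 17504 in knockdown libraries 1, 2 and 3, against 21102 to 22579 in the MKN28 controls. Of 6 epithelial markers, KRT8, KRT18 and KRT19 had at least 15618 counts in every library and EPCAM at least 1815. CDH1 had 1460, 772 and 416 counts in knockdown libraries 1 to 3, against 5993 to 8322 in MKN28 controls. CLDN4 had 56, 40987 and 21578 counts in knockdown libraries, against 34 to 89 in MKN28 controls. Among leukocyte markers, LYZ reached 4560 counts in MKN45 libraries and at most 4 in MKN28 libraries, CD68 had 48 to 696 counts, CD14 at most 63, and PTPRC and CD3E at most 3. Of 6 fibroblast markers, COL1A1 had 271 to 2090 counts and the others at most 41, and the 4 endothelial markers had at most 27. The gastric markers TFF1, TFF2, MUC5AC, MUC6 and GKN1 summed to at most 0.449 CPM in any MKN28 library and to 42.0 to 167 CPM in MKN45 libraries.

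All 43 members passed the filter on low counts in every fit. Together they took 0.391% to 0.509% of the unscaled counts in knockdown libraries and 0.383% to 0.452% in MKN28 controls. The TMM factors were 0.57 to 1.03 in knockdown libraries and 1.26 to 1.38 in MKN28 controls, so that the members' scaled sum was 4932 to 6878 CPM in knockdown libraries and 3026 to 3346 CPM in MKN28 controls. The unscaled share was 0.346% to 0.459% in overexpression libraries and 0.312% to 0.359% in MKN45 controls. Levels between genes were compared as CPM per kb of transcript, averaged over the 12 libraries. The libraries of each line were scaled apart from those of the other, so levels in MKN28 and MKN45 are not on one scale here. POLD2, the accessory subunit of polymerase delta, was highest at 176.3 CPM per kb, followed by PCNA at 128.4, MCM7 at 117 and MCM5 at 99.6. POLA1, the catalytic subunit of polymerase alpha, was lowest at 5.89 CPM per kb, below the initiation factor MCM10 at 6.72. The highest member of each remaining role by this mean was RPA3 (78.7 CPM per kb), TYMS (70.85), FEN1 (63.0), SLBP (48.9), CDC6 (35.7) and CDC45 (27.9). The order differed between groups, and the knockdown libraries raised several of these means. POLD2 led in knockdown libraries (300.6 CPM per kb), overexpression libraries (135.9) and MKN45 controls (224), but in MKN28 controls it stood at 44.6 CPM per kb, where PCNA led with 119.5. MCM5 had 289 CPM per kb in knockdown libraries and 35.8, 31.1 and 42.3 in overexpression libraries, MKN45 controls and MKN28 controls.

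**Figure D1:**
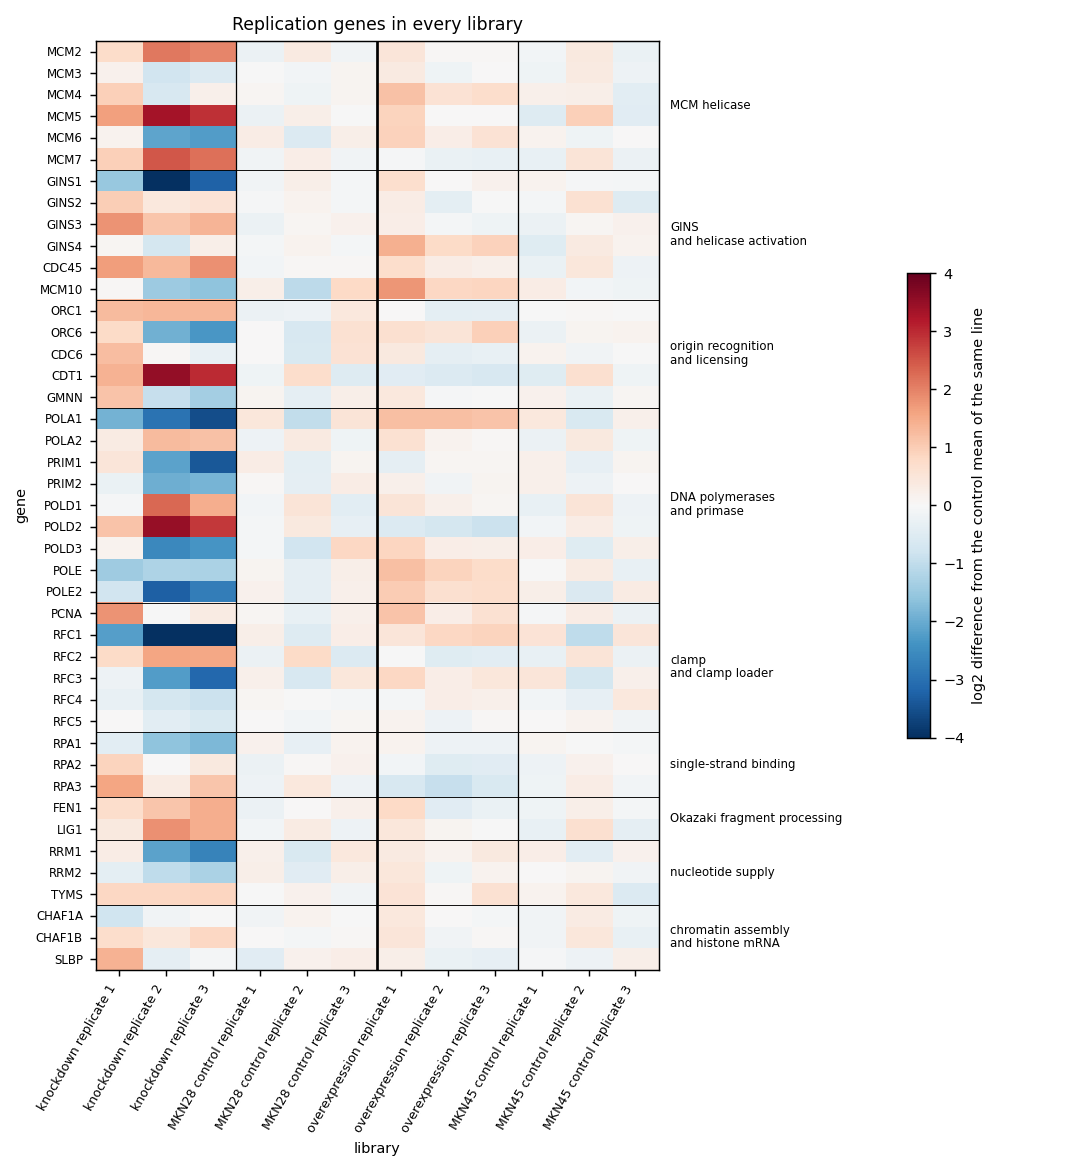
Each row is a gene and each column a library, and colour gives the log2 difference of CPM from the mean of the control libraries of the same line, with the scale clipped at -4 and 4. Knockdown libraries 2 and 3 carry the strongest colours in both directions, and the overexpression columns are pale beside them.

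In the knockdown, the replication genes moved in both directions. Of 43 members, 8 rose and 4 fell at an adjusted p under 0.05 (edgeR quasi-likelihood test, Benjamini-Hochberg adjustment over all 14939 genes tested), and 31 did not pass. Over all genes, 40.8% passed, with 19.2% higher and 21.6% lower, so the members' share of 27.9% was below that background. The genes that rose were MCM2, MCM5, MCM7, CDC45, GINS3, ORC1, CDT1 and POLD2, and those that fell were RFC1, POLA1, GINS1 and POLE. The median log2 fold change of the members was 0.32, against -0.20 for all genes tested. All 3 knockdown libraries lay above all controls for 13 members (23.5% of all genes) and below them for 7 members (30.3% of all genes), against 53.8% of all genes in either direction. The values are RNA levels in bulk cultures, where fewer cells in S phase and less RNA per cell cannot be told apart. Scaling by library totals alone gave 4 higher and 5 lower, with a median of -0.32 for the members and -0.92 for all genes. Without knockdown library 1 the counts were 14 higher and 16 lower, without library 2 they were 6 and 3, and without library 3 they were 4 and 3. Without MKN28 control 1, and likewise without control 3, they were 3 and 3. The share of all genes that passed under each of these settings is not given here. These counts are therefore no result about the members in particular. Each of the 12 genes kept its sign in all 14 alternatives tried.

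**Figure D2:**
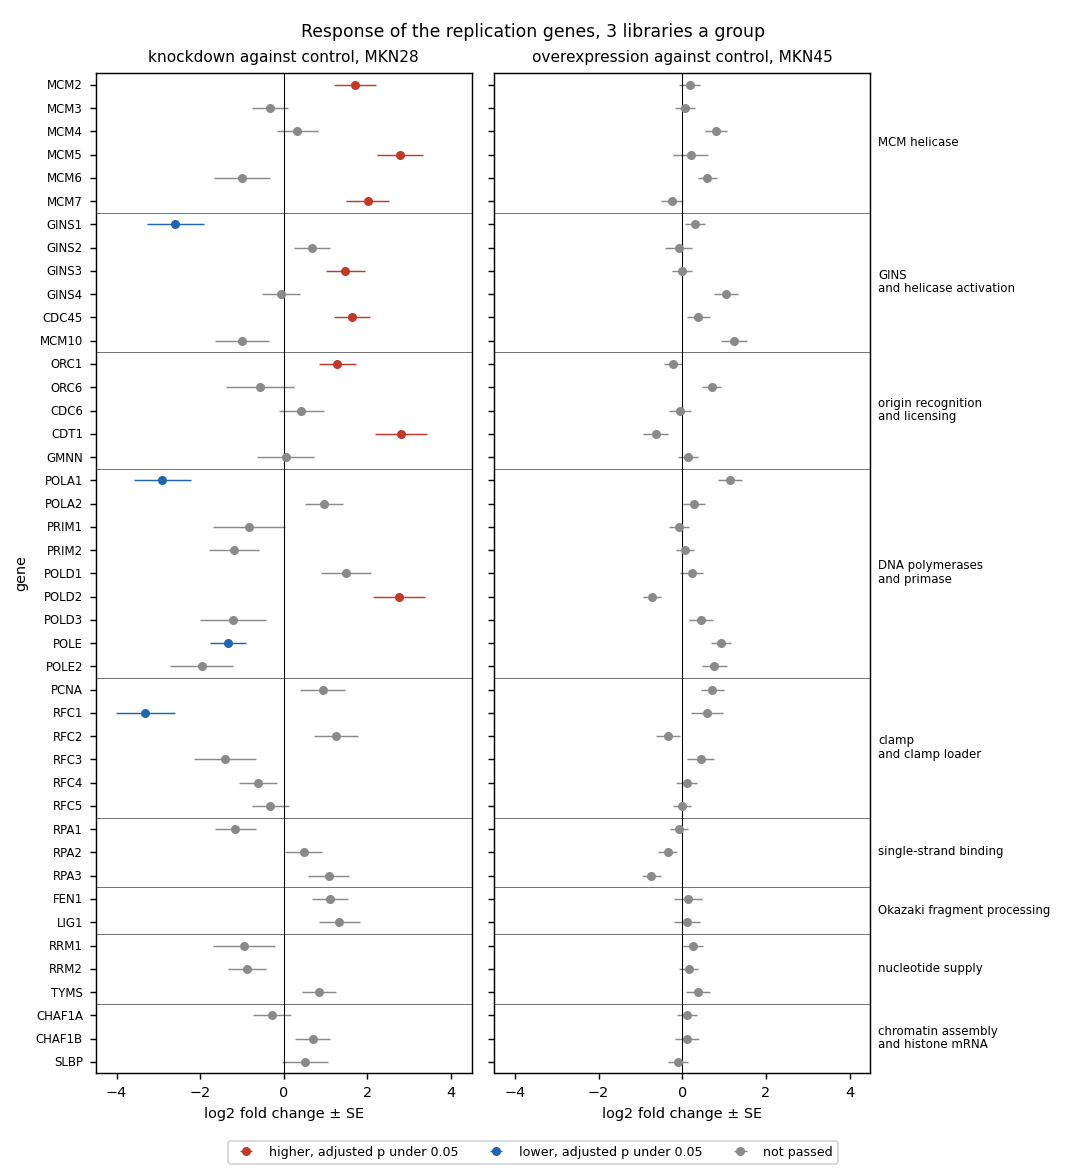
Points are log2 fold changes with their standard errors (bars), for the knockdown against MKN28 controls on the left and the overexpression against MKN45 controls on the right, with 3 libraries in each group. In the left panel 8 genes passed as higher and 4 as lower, and in the right panel none passed.

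Among the 6 subunits of the MCM2-7 helicase, 3 rose (50%, where 19.2% of all genes did) and none fell (where 21.6% did). MCM5 (ENSG00000100297, chr22:35400063-35425430, plus strand, GRCh38 in GENCODE 29, as are the coordinates below) had 387, 1245 and 944 CPM in knockdown libraries 1 to 3, against 106, 147 and 123 CPM in MKN28 controls. The lowest knockdown library lay above the highest control, and the means were 858 ± 436 and 125 ± 20.4 CPM (SD, n = 3 each). The log2 fold change was 2.77 (SE 0.54; edgeR adjusted p = 0.005), and it passed under every alternative tried. MCM7 (ENSG00000166508, chr7:100092728-100101940, minus strand) had 307, 885 and 737 CPM in knockdown libraries, against 145, 191 and 145 CPM in controls, a log2 fold change of 2.00 (SE 0.51; edgeR adjusted p = 0.0122). MCM2 (ENSG00000073111, chr3:127598223-127622436, plus strand), whose promoter holds the paired E2F motif printed above, had 429.9, 1109 and 1011 CPM in knockdown libraries, against 222, 333 and 233 CPM in controls. Its log2 fold change was 1.70 (SE 0.51; edgeR adjusted p = 0.0229). Of 14 alternatives, MCM7 passed under 11 and MCM2 under 8, and MCM2 did not pass with library totals alone. For all 3 genes library 1 was the lowest of the knockdown libraries and still above the controls. The other subunits did not pass: MCM4 had a log2 fold change of 0.32, MCM3 -0.33 and MCM6 -1.01. MCM6, named because its libraries split, had 109.5, 22.4 and 20.6 CPM in knockdown libraries, against 123, 66.9 and 117 CPM in controls. Knockdown library 1 lay within the controls for MCM6, and libraries 2 and 3 lay below them.

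The helicase activators were split. CDC45 (ENSG00000093009, chr22:19479459-19520612, plus strand), which joins the MCM ring as the origin fires, had 102, 79.1 and 114 CPM in knockdown libraries, against 29.7, 32.9 and 33.1 CPM in controls. This was a log2 fold change of 1.63 (SE 0.43; edgeR adjusted p = 0.014), with the 3 knockdown libraries above the controls after TMM scaling. The unscaled counts of CDC45 were 1597, 802 and 996 in knockdown libraries, against 720, 776 and 766 in controls. GINS3 (ENSG00000181938, chr16:58295080-58406144, plus strand), a subunit of the 4-part GINS complex, had 57.2, 35 and 41.9 CPM in knockdown libraries, against 13.7, 16.8 and 18 CPM in controls. Its log2 fold change was 1.47 (SE 0.47; edgeR adjusted p = 0.029). GINS1 (ENSG00000101003, chr20:25407727-25452628, plus strand), a partner in the same complex, fell: it had 22.2, 3.45 and 6.4 CPM in knockdown libraries, against 58.8, 75.2 and 60.7 CPM in controls. The means were 10.7 ± 10.1 and 64.9 ± 8.99 CPM, and the log2 fold change was -2.60 (SE 0.68; edgeR adjusted p = 0.0138). The groups did not overlap for any of these 3 genes after TMM scaling. With scaling by library totals alone, CDC45 and GINS3 did not pass. Of 14 alternatives, CDC45 passed under 10 and GINS3 under 8. GINS2 (0.67), GINS4 (-0.07) and MCM10 (-0.999) had log2 fold changes that did not pass.

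Of 5 genes of origin recognition and licensing, 2 rose (40%, where 19.2% of all genes did). CDT1 (ENSG00000167513, chr16:88803213-88809258, plus strand), the loader of the MCM ring, had 94.2, 407 and 284 CPM in knockdown libraries, against 31.1, 57.5 and 24.5 CPM in controls, with means of 262 ± 158 and 37.7 ± 17.5 CPM. Its log2 fold change of 2.79 (SE 0.62; edgeR adjusted p = 0.0075) was the largest among the members. ORC1 (ENSG00000085840, chr1:52372829-52404459, minus strand), an ATP-binding subunit of the origin recognition complex, had 87.2, 91.5 and 91.7 CPM in knockdown libraries, against 31, 31.5 and 48.7 CPM in controls. The log2 fold change was 1.28 (SE 0.44; edgeR adjusted p = 0.0378), and of the 12 genes that passed it did so under the fewest alternatives, 6 of 14. CDC6, the partner of CDT1, had 146, 64 and 50.3 CPM in knockdown libraries, against 62, 40.6 and 92.6 CPM in controls, so the groups overlapped (0.42 on the log2 scale). GMNN, which encodes geminin, the inhibitor of CDT1, had 47.3, 10.8 and 7.77 CPM in knockdown libraries, against 22.8, 16.1 and 25 CPM in controls, and did not pass (log2 fold change 0.05). Knockdown library 1 lay above the controls for GMNN and libraries 2 and 3 lay below them. ORC6, an outer subunit of the origin complex, did not pass either (log2 fold change -0.57).

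Of the 9 genes of polymerases and primase, 1 rose (11.1%, where 19.2% of all genes did) and 2 fell (22.2%, where 21.6% did). POLD2 (ENSG00000106628, chr7:44114681-44124358, minus strand) had 159, 809 and 509 CPM in knockdown libraries, against 68.1, 94 and 57.2 CPM in controls, with no overlap. The means were 493 ± 325 and 73.1 ± 18.9 CPM, a log2 fold change of 2.75 (SE 0.62; edgeR adjusted p = 0.0075). POLA1 (ENSG00000101868, chrX:24693919-24996986, plus strand) had 6.93, 3.06 and 1.83 CPM in knockdown libraries, against 36.9, 13.3 and 38.9 CPM in controls. Every knockdown library lay below every control, and the log2 fold change was -2.90 (SE 0.68; edgeR adjusted p = 0.009). POLE (ENSG00000177084, chr12:132623753-132687365, minus strand), the catalytic subunit of the leading-strand polymerase, had 48.4, 55.1 and 53.7 CPM in knockdown libraries, against 141, 102 and 155 CPM in controls. The means were 52.4 ± 3.54 and 133 ± 27.7 CPM, and the log2 fold change was -1.34 (SE 0.42; edgeR adjusted p = 0.0291). It was the one fallen gene whose 3 knockdown libraries lay close together. The other 6 did not pass, and their log2 fold changes ran from -1.96 for POLE2, the second subunit of polymerase epsilon, to 1.48 for POLD1, the catalytic subunit of polymerase delta. Between them lay POLD3 (-1.21), PRIM2 (-1.19), PRIM1 (-0.84) and POLA2 (0.96).

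In the clamp and its loader, RFC1 was the only one of 6 genes that passed, and it fell (16.7%, where 21.6% of all genes did). RFC1 (ENSG00000035928, chr4:39287456-39366375, minus strand), the large subunit of replication factor C, had 16.7, 3.75 and 3.66 CPM in knockdown libraries, against 91.6, 54.4 and 94.4 CPM in controls. The means were 8.03 ± 7.49 and 80.1 ± 22.4 CPM, and the log2 fold change of -3.31 (SE 0.69; edgeR adjusted p = 0.0061) was the most negative among the members and passed under every alternative tried. PCNA, the clamp, had 561, 157 and 203 CPM in knockdown libraries, against 169, 130.0 and 185 CPM in controls. Library 1 was far above the controls and libraries 2 and 3 lay near them, and PCNA did not pass (log2 fold change 0.93, SE 0.54). The small loader subunits did not pass: RFC2 had a log2 fold change of 1.25, RFC5 -0.32, RFC4 -0.61 and RFC3 -1.41.

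None of the remaining 11 members passed in the knockdown, where 40.8% of all genes did. RPA3, the smallest subunit of the protein that coats single-stranded DNA, had 103, 43.7 and 75.8 CPM in knockdown libraries, against 30.2, 46.2 and 29.7 CPM in controls, and the groups overlapped. FEN1, the nuclease that trims Okazaki fragments, had 227, 299 and 384 CPM in knockdown libraries, against 120.0, 141 and 162 CPM in controls, without overlap (log2 fold change 1.10; edgeR adjusted p = 0.0614). LIG1, the ligase that joins those fragments, came closest to the threshold, with a log2 fold change of 1.33 (edgeR adjusted p = 0.051). TYMS, thymidylate synthase, had 159, 161 and 164 CPM in knockdown libraries, against 87.9, 102 and 80.8 CPM in controls. The TYMS groups did not overlap, but the log2 fold change of 0.84 did not pass (edgeR adjusted p = 0.116). RRM1 and RRM2, the subunits of ribonucleotide reductase, had log2 fold changes of -0.96 and -0.88. SLBP, which binds the ends of histone mRNAs, had 231, 67.9 and 82.6 CPM in knockdown libraries, against 64.3, 99 and 105 CPM in controls, with library 1 alone above the controls. RPA1 (-1.16), RPA2 (0.47) and the chromatin assembly subunits CHAF1A (-0.29) and CHAF1B (0.69) did not pass either.

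Proteins of one complex are needed together, and their RNAs moved apart in the knockdown, where 19.2% of all genes rose and 21.6% fell. The ratio of the highest to the lowest of the MCM2-7 subunits, in CPM per kb, was 4.44, 70.0 and 57.7 in knockdown libraries 1 to 3, against 1.87, 5.14 and 2.05 in MKN28 controls. In each knockdown library MCM5 was the highest subunit and MCM6 the lowest: in library 2 MCM5 stood at 420 CPM per kb and MCM6 at 5.99. For replication factor C the ratio was 6.41, 44.7 and 44.4 in knockdown libraries, against 3.01, 2.18 and 4.48 in controls, with RFC1 the lowest subunit in all 3 knockdown libraries. For GINS it was 4.34, 17.1 and 11.0 in knockdown libraries, against 2.56, 2.67 and 2.01 in controls, with GINS3 highest and GINS1 lowest. For the RPA trimer it was 6.85, 6.66 and 13.1 in knockdown libraries, against 1.57, 2.87 and 1.33 in controls. For MCM2-7 in control library 2 the ratio exceeded that of knockdown library 1, so those groups overlapped, and for the other complexes they did not. These ratios were chosen after the values were seen and carry no test. Over all genes, 53.8% did not overlap between the groups of this comparison, and no such ratios were taken for other sets of genes. The GC content of the transcripts was 58.3% for MCM5 and 43.1% for MCM6, and 49.6% for GINS3 and 41.4% for GINS1. For RPA3, the highest subunit of its trimer in the knockdown libraries, it was 45.4%, and for RPA1, the lowest, 48.2%. For RFC1 it was 40.4%, for RFC2, the highest loader subunit in knockdown libraries 2 and 3, 53.4%, and for RFC3, the highest in library 1, 41.6%. The part of base composition in the ratios was not tested.

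**Figure D3:**
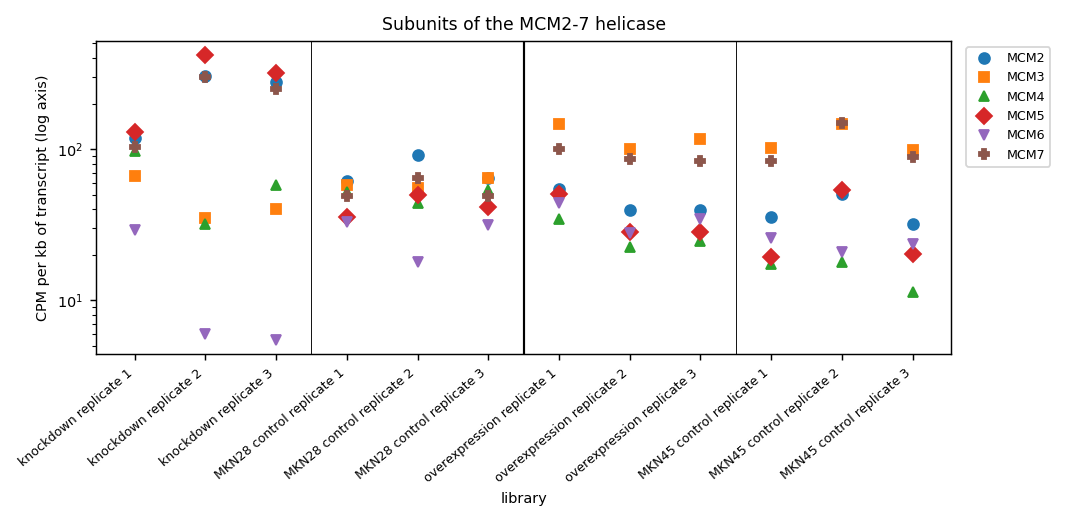
Points give CPM per kb of transcript (log axis) for the 6 MCM2-7 subunits in each library. The subunits spread widest in knockdown libraries 2 and 3, where MCM5 stands at 420 and 318 CPM per kb and MCM6 at 5.99 and 5.51.

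The direction of a member in the knockdown went with the base composition of its transcripts. Across the 43 members, log2 fold change and GC content had a Spearman correlation of 0.774, and across 14797 genes with an annotated transcript it was 0.522. These are descriptions, since the genes share the same 6 libraries. The 8 members that rose had a GC content of 49.6% to 64.9% (median 57.9%), and the 4 that fell 40.4% to 56.4% (median 42.1%), with POLE the GC-rich one. The 22 members at or above the median GC content of 49.1% had a median log2 difference from the control mean of 0.86, 1.19 and 1.34 in knockdown libraries 1 to 3. For the 21 members below it the value was 0.0471, -1.92 and -1.85. The GC-poor members thus lay far below the control mean in libraries 2 and 3 and close to it in library 1. A split by GC content was also present between control libraries. In MKN28 controls 1 to 3 the 22 members had medians of -0.13, 0.162 and -0.0413. The 21 GC-poor members had 0.119, -0.392 and 0.247 there. In MKN45 controls 1 to 3, set against their own mean, the 22 members had -0.184, 0.373 and -0.201. The 21 GC-poor members had 0.152, -0.158 and 0.00575. Among all genes, the Spearman correlation of CPM with GC content was 0.0624, 0.283 and 0.278 in knockdown libraries 1 to 3, against -0.022, 0.089 and -0.0628 in MKN28 controls. Correlation with transcript length was 0.183, 0.13 and 0.122 in knockdown libraries, against 0.36, 0.315 and 0.356 in controls. With the trend on length and GC content removed in each library, 13 members were higher and 5 lower. The share of all genes under this setting is not given. Of the 12 genes called before, 10 were kept, while POLA1 and POLE were not.

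**Figure D4:**
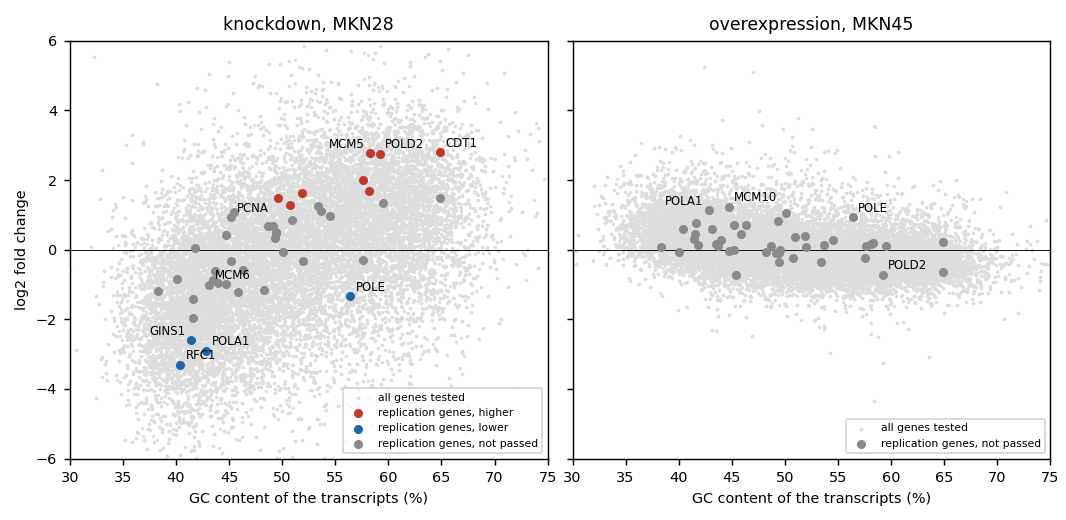
Each point is a gene, by the GC content of its transcripts (percent) and its log2 fold change in the knockdown (left) or the overexpression (right), and a few genes with larger changes are outside the frame. Replication genes that rose lie at 49.6% GC or more on the left, and RFC1, GINS1 and POLA1 lie among the GC-poor genes.

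Of 4 members that fell and had a promoter window, 3 held the E2F motif, as did 2 of 7 that rose and 5 of 26 that did not pass. The genes shown above therefore include MCM2 and MCM7, which rose, and GINS1, POLA1 and POLE, which fell.

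Related genes outside the 43 were split in the knockdown as well. Of 40 other replication genes, 8 rose (20%, where 19.2% of all genes did) and 12 fell (30%, where 21.6% did), with a median log2 fold change of -0.76. POLE4, a small subunit of polymerase epsilon, rose the most (272 ± 189 CPM in knockdown libraries and 14.1 ± 5.24 CPM in controls, log2 fold change 4.27), followed by RNASEH2C (2.92), thymidine kinase TK1 (2.58) and CHTF8 (2.48). The largest falls were in MCM8 (2.72 ± 2.27 CPM in knockdown libraries and 40 ± 22.2 CPM in controls, log2 fold change -3.85), ORC2 (-3.78), WDHD1 (-3.51) and ATAD5, which unloads the clamp (-3.38). Of 21 genes of the E2F family, its regulators and the S-phase cyclins, 5 rose (23.8%) and 2 fell (9.52%). MYBL2, an E2F target, had 1875 ± 1092 CPM in knockdown libraries, against 261 ± 12.7 CPM in controls (log2 fold change 2.85), and E2F1 (2.10), CDC25A (1.64) and CCNE1 (1.53) rose too. RB1, the retinoblastoma gene, fell to 3.18 ± 1.19 CPM in knockdown libraries, against 45.1 ± 19.2 CPM in controls (log2 fold change -3.81), and its relative RBL2 fell by 3.58 on the log2 scale. Of 8 further markers of cycling cells, 1 rose (12.5%) and 4 fell (50%): PLK1 rose (2.26) and TOP2A (-4.44), CENPF (-3.42), BUB1 (-2.01) and MKI67 (-2.01) fell. Of the 6 epithelial markers, 4 rose (66.7%, where 19.2% of all genes did) and 1 fell (16.7%, where 21.6% did). The one that fell was CDH1, by 2.05 on the log2 scale. The summed CPM of the 6 epithelial markers, most of it KRT8 in the knockdown, was 14500 to 39300 in knockdown libraries, against 7140 to 7720 in controls. The part of these shifts in the members' values was not tested.

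In the overexpression, no replication gene passed. By edgeR 0 of 43 members were called, where 1.13% of 15833 genes were, with 0.935% higher and 0.196% lower. At an unadjusted p under 0.05 there were 11 members (25.6%; 26.8% of all genes), 9 higher and 2 lower. The median log2 fold change was 0.13, against -0.0022 for all genes. All 3 overexpression libraries lay above all controls for 8 members (19.4% of all genes) and below them for 2 (18.7% of all genes), against 38.1% of all genes in either direction. The groups were separate and higher for MCM4, MCM6, GINS4, MCM10, ORC6, POLA1, POLE and POLE2, and separate and lower for POLD2 and RPA3. DESeq2 called 4 members higher and 2 lower. Without MKN45 control 2, 3 members were higher, GINS4, POLA1 and POLE. For these alternatives the share of all genes called is not given.

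The members highest in their role by the mean of all 12 libraries had the following levels in MKN45, where MCM3 (121 CPM per kb in overexpression libraries and 115.4 in controls) stood above MCM7 (90.1 and 107). POLD2 had 246, 222 and 201 CPM in overexpression libraries, against 335, 446 and 321 CPM in MKN45 controls, without overlap (log2 fold change -0.72, SE 0.21; edgeR adjusted p = 0.0916). RPA3 had 36.5, 29.6 and 37.1 CPM in overexpression libraries, against 49.9, 70.2 and 52.5 CPM in controls, also without overlap (log2 fold change -0.74; edgeR adjusted p = 0.102). PCNA had 189, 102 and 129 CPM in overexpression libraries, against 81.5, 104 and 71.2 CPM in controls, and overexpression library 2 lay within the controls. MCM7 had 297, 255 and 249 CPM in overexpression libraries, against 247, 442 and 263 CPM in controls, where control 2 was the high one. CDC45 had 66.5, 49.4 and 46.1 CPM in overexpression libraries, against 33.7, 55.8 and 34.9 CPM in controls. CDC6 had 168, 98.1 and 103 CPM in overexpression libraries, against 141, 115 and 126 CPM in controls. In both genes the groups overlapped, and overexpression library 1 was the highest of the 6. FEN1 had 112, 46.5 and 52.6 CPM in overexpression libraries, against 56.6, 75.1 and 60.7 CPM in controls. TYMS had 76.7, 54.2 and 79.6 CPM in overexpression libraries, against 57.5, 69.6 and 35.7 CPM in controls. SLBP had 61.9, 43.7 and 42 CPM in overexpression libraries, against 50.9, 45.7 and 62.5 CPM in controls. None of these 3 separated the groups.

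The smallest adjusted p was that of POLA1, named here for that reason. It had 65.7, 65.7 and 63.6 CPM in overexpression libraries, against 38, 18.2 and 32.6 CPM in controls, with means of 65 ± 1.2 and 29.6 ± 10.2 CPM (SD, n = 3 each). Its log2 fold change was 1.13 (SE 0.29; edgeR adjusted p = 0.0703), and the overexpression libraries lay almost on one level above scattered controls. MCM10 followed with a log2 fold change of 1.23 (edgeR adjusted p = 0.0708), then POLE with 0.93 (0.072) and GINS4 with 1.04 (0.0824). The MCM2-7 ratio of highest to lowest subunit was 4.26, 4.43 and 4.68 in overexpression libraries, against 5.78, 8.37 and 8.70 in MKN45 controls, with MCM4 the lowest subunit throughout. Log2 fold change and GC content had a Spearman correlation of -0.265 over the members and -0.448 over 15660 genes. No gene passed among the 40 other replication genes, the 21 E2F and cyclin genes or the 8 cycling markers.

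The arms share no library, so their fold changes can be set side by side. The arms differ in line, in the direction of the change in ZNF165 and in its size, and these cannot be told apart. The sign was opposite in 28 of 43 members (65.1%) and in 72.7% of the 13720 genes tested in both arms, with a Spearman correlation of -0.492 over the members and -0.598 over those genes. Over all genes with an annotated transcript, log2 fold change and GC content had a Spearman correlation of 0.522 in the knockdown and -0.448 in the overexpression. The part of base composition in the opposite signs was not tested. POLA1 had log2 fold changes of -2.90 in the knockdown and 1.13 in the overexpression, POLE -1.34 and 0.93, and POLD2 2.75 and -0.72. MCM5 was positive in both, with 2.77 and 0.20, as was CDC45 with 1.63 and 0.38. The sum of the log2 fold changes, which is 0 for equal and opposite responses, was tested in a fit of all 12 libraries, and 9 members passed (7 above 0 and 2 below), a share of 20.9% where 17.5% of all genes passed (8.09% above 0 and 9.38% below). They were MCM2, MCM5, MCM7, CDC45, GINS3, CDT1 and POLD2 above 0 and RFC1 and GINS1 below it. This fit uses the same libraries as each arm and is no independent result. The number was 2 with scaling by library totals, 0 without MKN28 control 1 and 25 without knockdown library 1. It was 9 without MKN28 control 2, 8 without MKN45 control 2 and 1 to 4 without any other library. The share of all genes under these settings is not given. POLA1, whose fold changes had opposite signs, had a sum of -1.71 (edgeR adjusted p = 0.0955), and POLE -0.35 (0.607).

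Between the control libraries of the lines, members differed in both directions. Of 43 members, 11 were lower (25.6%) and 2 higher (4.65%) in MKN45 controls by the edgeR test. Over all 16088 genes tested, 20.4% were lower and 21.4% higher. The members' share of 30.2% in either direction was below the 41.8% of all genes. The median log2 fold change was -0.23, against -0.04 for all genes. Groups were separate for 16 lower members (25.4% of all genes) and 7 higher members (26.9% of all genes), against 52.3% of all genes in either direction. With the replicate number as a block, 15 members were lower and 9 higher, the 13 among them, with a median of -0.18. Line and any difference in handling between the lines cannot be told apart, and the MKN28 controls are the same libraries as in the knockdown comparison. Without MKN45 control 1, 4 members were lower and 1 higher, and without MKN45 control 3, 3 were lower and 1 higher. Without MKN28 control 1, and likewise without control 3, 7 were lower and 1 higher, and without MKN28 control 2, 9 were lower and 4 higher. Without MKN45 control 2, 13 were lower and 1 higher. The share of all genes that passed with the block or without a library is not given. These counts are therefore no result about the members in particular.

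MCM4, a subunit of the catalytic core of the MCM ring, had 54.4, 59.5 and 35.1 CPM in MKN45 controls, against 210.4, 179 and 214 CPM in MKN28 controls. The means were 49.7 ± 12.9 and 201 ± 19.2 CPM, the log2 fold change was -2.02 (SE 0.32; edgeR adjusted p = 0.00033), and it passed under every alternative tried. MCM2 had 127, 195 and 112 CPM in MKN45 controls, against 282, 432 and 292 CPM in MKN28 controls (log2 fold change -1.21; edgeR adjusted p = 0.0116). The MCM10 values were 21.7, 17.5 and 15.4 CPM in MKN45 controls, against 54.5, 22.4 and 79.1 CPM in MKN28 controls, where control 2 lay near the MKN45 level (log2 fold change -1.51). The GINS subunits that differed were 2 of 4. GINS1 had 43.9, 41.3 and 37.7 CPM in MKN45 controls, against 75, 97.6 and 76.2 CPM in MKN28 controls (log2 fold change -1.02). GINS4 had 17.3, 33.3 and 26.3 CPM in MKN45 controls, against 48.4, 57.6 and 48.2 CPM in MKN28 controls (log2 fold change -1.01). In these 5 genes the highest MKN45 library lay below the lowest MKN28 library.

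The polymerases were split between the lines. POLD2 was the most different of all members in the other direction, with 331, 472 and 313 CPM in MKN45 controls, against 86.7, 122 and 71.9 CPM in MKN28 controls. The means were 372 ± 87.2 and 93.5 ± 25.7 CPM, and the log2 fold change was 1.99 (SE 0.33; edgeR adjusted p = 0.00046), past the threshold under every alternative tried. POLD2 thus went against POLE and POLA2, which were lower. POLE had 78.7, 107 and 65.1 CPM in MKN45 controls, against 179.7, 132 and 195 CPM in MKN28 controls (log2 fold change -1.01; edgeR adjusted p = 0.0243). POLA2, the regulatory subunit of polymerase alpha, had 24.2, 39.8 and 25.1 CPM in MKN45 controls, against 57.8, 87 and 58.4 CPM in MKN28 controls (log2 fold change -1.19). The clamp PCNA had 80.3, 109.9 and 69.5 CPM in MKN45 controls, against 216, 169 and 233 CPM in MKN28 controls (log2 fold change -1.25; edgeR adjusted p = 0.0071). FEN1 had 55.7, 79.4 and 59.2 CPM in MKN45 controls, against 153, 183 and 203 CPM in MKN28 controls (log2 fold change -1.47; edgeR adjusted p = 0.0022). The FEN1 difference passed under every alternative tried. TYMS had 56.7, 73.7 and 34.9 CPM in MKN45 controls, against 112, 132 and 102 CPM in MKN28 controls (log2 fold change -1.06). SLBP had 50.2, 48.4 and 60.9 CPM in MKN45 controls, against 81.8, 128 and 132 CPM in MKN28 controls (log2 fold change -1.10). All of these genes separated the lines. CHAF1A, the large subunit of the chromatin assembly factor, was the second gene that was higher in MKN45, with means of 92.2 ± 24 CPM in MKN45 controls and 48.9 ± 5.2 CPM in MKN28 controls (log2 fold change 0.92; edgeR adjusted p = 0.0357).

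**Figure D5:**
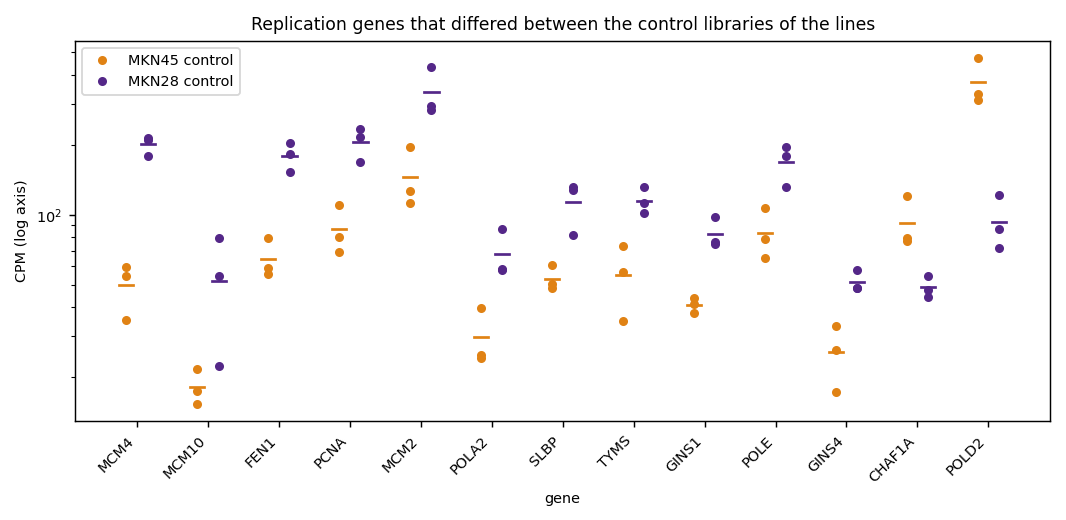
Points are CPM (log axis) of single control libraries and bars their means, MKN45 controls left of MKN28 controls, for the 13 members that passed. The MKN45 controls lie below all MKN28 controls for 11 genes and above them for CHAF1A and POLD2.

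Members that did not pass between the lines included MCM7, CDC45, CDC6 and RPA3. MCM7 had 244, 468 and 257 CPM in MKN45 controls, against 185, 247 and 182 CPM in MKN28 controls. CDC45 had 33.2, 59 and 34 CPM in MKN45 controls, against 37.9, 42.6 and 41.6 CPM in MKN28 controls, with a log2 fold change of 0.05. The groups overlapped for both. CDC6 had 139, 122 and 123 CPM in MKN45 controls, against 78.9, 52.6 and 116 CPM in MKN28 controls, and RPA3 had 49.2, 74.3 and 51.2 CPM in MKN45 controls, against 38.4, 59.9 and 37.3 CPM in MKN28 controls. The lines were separate for CDC6 and overlapped for RPA3. All 5 licensing genes had positive log2 fold changes, from 0.06 for ORC6 to 0.78 for CDT1, and none passed. Of the 40 other replication genes 3 were higher (7.5%, where 21.4% of all genes were) and 7 lower (17.5%, where 20.4% were) in MKN45 controls, the largest being CLSPN, which encodes the checkpoint mediator claspin (5.01 ± 2.38 CPM in MKN45 controls and 43.4 ± 24.9 CPM in MKN28 controls, log2 fold change -3.10), the origin kinase CDC7 (-2.22), MCM8 (-2.06) and MTBP (-1.69). The higher ones were POLD4 (1.58), RNASEH2C (1.13) and RNASEH2B (0.88). Of the 21 E2F and cyclin genes, 2 were higher (9.52%, where 21.4% of all genes were) and 5 lower (23.8%, where 20.4% were). TFDP2, which encodes a partner of E2F proteins (1.21), and E2F5 (1.01) were the higher ones. The largest differences among the lower ones were in E2F8 (-2.84), CCNE2 (-1.68), LIN9 (-1.49) and CDK2 (-1.38). None of the 8 cycling markers passed.

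Some members share sequence with other annotated genes. Reads of genes that overlap on opposite strands cannot be told apart without the strand setting. Where the overlap is on the same strand, the strand setting would not separate them either. In TYMS 39.15% of exon bases overlap ENOSF1 on the opposite strand, and in MCM2 22.71% overlap an antisense gene. In POLA2 35.14% overlap the read-through gene AP000944.2 on the same strand. On the opposite strand the share was 21.17% for GINS4, 10.93% for GINS3 and 8.94% for MCM7, with AP4M1. On the same strand it was 20.23% for RRM2 and 14.85% for PRIM1. Annotated pseudogenes carry the names of PCNA, RPA2 and RRM2 (3 each), of TYMS (2) and of POLD2, RFC3, RFC5 and FEN1 (1 each), so part of those counts is uncertain.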

How the data were processed

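RNA sequencing of 12 libraries in 4 groups of 3 was analysed. The authors deposited whole-number read counts per Ensembl gene, per the file headers. HISAT2 and StringTie were used, per the submitters' processing notes. The versions, genome build, annotation, strand setting and counting step were not given in the sources used here. Library totals were 12075813 to 19548445 counts, and 3 counts correspond to 0.153 to 0.248 unscaled CPM, which limits low genes by counting error only.

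Counts were tested with edgeR 4.0.16 in R 4.3.3: TMM scaling, filterByExpr (minimum count 10, minimum total 15), the quasi-likelihood test and Benjamini-Hochberg adjustment over all genes, with a threshold of 0.05. The scripts were tested on simulated data. Each line was fitted on its own 6 libraries, the control libraries of both lines in a further fit, and all 12 libraries for the sum of the responses. SE is the absolute log2 fold change over the square root of F. CPM per kb uses the median length, and GC content is the mean, over a gene's GENCODE 29 basic transcripts. In that annotation 50111 identifiers were found. The pseudocount for log2 differences was 0.5.

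The members and gene lists were chosen with earlier results of these data known. Values per library are given for members past the threshold with separate groups (up to 12 by adjusted p) and for the highest member per length in each role, with up to 4 genes per direction from the other lists. MCM6, GMNN, POLA1 and others named with a reason, and the ratios within complexes, were chosen after their values were seen. Promoters are shown for up to 6 members with an E2F motif, none on chromosome 8.

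Replicate numbers come from the titles. Deviations from group means correlated by 0.264, 0.507 and 0.281 between same-numbered controls of the lines. Between differently numbered controls they correlated by -0.394 to 0.275, the highest for MKN45 control 1 with MKN28 control 3. Whether the numbers pair these libraries is thus not settled, and the replicate block is given beside that comparison. In the knockdown (0.291, 0.431, -0.357) and the overexpression (-0.0553, -0.0547, 0.0867) the numbers did not pair libraries. Alternatives were library totals, upper-quartile factors, DESeq2 1.42.0, no filter, the replicate block, removal of length and GC trends, 1 fit of all 12 libraries, knockdown libraries 2 and 3 left out, and each library left out in turn.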

Additional observations from a re-analysis of the deposited data

Results flagged for a closer look

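The responses of 9 of 43 replication genes (20.9%, where 17.5% of all genes passed) differed between knockdown in MKN28 and overexpression in MKN45, by the test that the log2 fold changes of knockdown and overexpression sum to 0 (edgeR quasi-likelihood test of all 12 libraries, Benjamini-Hochberg adjustment over 17266 genes). The sum was 3.02 for MCM5 (adjusted p = 0.0137), 2.05 for CDC45 (0.0131), 1.91 for MCM2 (0.0336), 2.19 for CDT1 (0.0493), 2.07 for POLD2 (0.0457), 1.80 for MCM7 (0.0438) and 1.51 for GINS3 (0.0402). It was -2.68 for RFC1 (0.0326) and -2.26 for GINS1 (0.045). For all 9 the knockdown supplied most of the sum: MCM5 had 2.77 in the knockdown and 0.20 in the overexpression, and RFC1 -3.31 and 0.59. CDC45 passed under 16 of 19 alternatives and MCM5 under 17, GINS1, MCM7 and POLD2 under 6 each. The knockdown libraries behind these sums stand apart from each other as given above, and the part of that in the sums was not tested.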

How the results depend on the processing

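In the knockdown, 4 members were higher with library totals, 13 with DESeq2, 13 with length and GC trends removed and 15 in the fit of all 12 libraries, where 7 were lower. With knockdown libraries 2 and 3 left out 1 was lower, with library 1 assumed to vary like the controls. The median reversed to -0.32 with library totals and to -0.0266 without knockdown replicate 1, where GMNN reversed to -1.07 (adjusted p = 0.0346, -1.07 to 0.47 without 1 library). Leaving out 1 library gave 3 to 14 higher, 3 to 16 lower and medians of -0.0266 to 0.61. With the replicate block, 10 were higher and 11 lower in the knockdown, 0 in the overexpression, 15 lower and 9 higher between the lines, and 6 differed in response. It changed no other count by over 1.5 times.

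In the overexpression, DESeq2 called 4 higher and 2 lower, no filter 2 higher and trend removal 4 higher. Leaving out 1 library gave 0 to 3 higher, 0 lower and medians of -0.0287 (without overexpression replicate 1) to 0.26. In the cell line comparison the median was -0.34 with library totals, -0.0706 with upper-quartile factors and -0.0837 with trends removed, with 8 higher, and 1 was higher with no filter or in the fit of all 12 libraries. Trend removal with the replicate block, chosen after the data were seen, gave 8 higher, 15 lower and a median of -0.13. Leaving out 1 library gave 1 to 4 higher, 3 to 13 lower and medians of -0.41 to -0.10. The response difference passed for 2 members with library totals (both among the 9), 16 with DESeq2 (9 among them), 18 with trends removed (8), 4 with knockdown libraries 2 and 3 left out (2, while MCM4 and PCNA were added) and 0 to 25 without 1 library. ORC6 reversed to -1.54 (adjusted p = 0.0164) without knockdown replicate 1, and lay between -1.54 and 0.61 without 1 library. The shares of all genes that passed under the settings of this section are not given. The counts are therefore no result about the members in particular. The cause of the shifts between settings was not tested.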
